A study of Mus musculus with 2 samples.

Results

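The 40 genes described here encode proteins that work in the nucleolus on the making of ribosomes: RNA polymerase I and its factors, the abundant nucleolar proteins, the proteins of the small nucleolar ribonucleoproteins (snoRNPs), and maturation factors of the small and of the large ribosomal subunit. They were chosen by these known roles, with earlier results of these data known. All 40 were among the 14292 mouse genes with a tag in at least 1 of the 2 libraries. Ribosome production starts when RNA polymerase I copies the ribosomal DNA into a long precursor RNA. Box C/D snoRNPs guide its 2′-O-methylation and box H/ACA snoRNPs its pseudouridylation, while assembly factors cut and fold it around the ribosomal proteins into the small and large subunits. In the testis the pathway is known to be active in dividing spermatogonia.

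Digital gene expression (DGE) was measured in 2 established mouse cell lines, with 1 library of each. The donor of GC-1spg was 10 days old; its type B spermatogonia had received the plasmid pSV3-neo, and the labels place the line past that stage and short of primary spermatocytes. The donor of GC-2spd (ts) was 6 weeks old, its spermatocytes were transformed with the large T antigen of SV40, and the labels place the line before meiosis. Both were grown in DMEM with FBS, and no treatment differed between them, so that cell line, donor mouse, age, transforming vector and library cannot be told apart.

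A DGE tag is the 17 bases that follow a CATG, the site of the enzyme NlaIII, together with that CATG. Each transcript gives in principle 1 tag, so that the level of a gene, given as TPM, the copies of its tags scaled to the clean tags of the library, does not grow with the length of its transcript. The GC-1spg library held 5072149 clean tags, against 4726808 in GC-2spd (ts), of which 64.3% and 68.0% fell on the sense strand of 1 gene only. Each copy of a tag was worth 0.197 TPM in GC-1spg against 0.212 TPM in GC-2spd (ts). Tags with a single copy had been removed, so the lowest count of a tag was 2 in both libraries. A gene was called when the 2 libraries differed by at least 2-fold at an FDR of at most 0.001 (two-sided Audic-Claverie test over all 14292 genes). There was no replicate of either line: the test compares these 2 libraries, not the 2 kinds of cell, and the intervals printed are exact 95% (Clopper-Pearson) intervals that cover counting error only. Ratios are given throughout as log2 of GC-2spd (ts) over GC-1spg. Of 14 germ cell markers only 3 had a tag, *Uchl1* with 329 tags in GC-1spg against 66 in GC-2spd (ts), *Prdm9* with 16 in each and *Spo11* with 2 and 0, while *Ddx4*, *Dazl*, *Sycp3* and *Stra8* had none in either library. Among 7 fibroblast markers 3 were called higher and 2 lower, with *Col1a1* at 2063 and 513 TPM and *Vim* at 194 and 613 TPM. Of 8 Sertoli and Leydig cell markers 1 was called, *Gata4*, with 29 and 138 tags. What these differences between the lines contribute to the values below was not tested.

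Most of the 40 genes differed by less than 2-fold between the lines. Of the 37 with tags in both libraries, 26 had more TPM in GC-2spd (ts) and 11 had more in GC-1spg. Among all 11377 genes with tags in both libraries, 58.7% had more TPM in GC-2spd (ts). Set against the median ratio of all genes, 23 of the 37 lay above and 14 below. The interval of the ratio lay above 0 for 21 genes and below 0 for 6, and it held 0 for 10. These interval counts are set against 0 and not against the median of all genes, 0.17. They have no share over all genes beside them. Of the 40 genes, 5 were called higher in GC-2spd (ts), namely *Nop56*, *Gar1*, *Wdr12*, *Ebna1bp2* and *Noc2l*, which is 12.5% beside 11.8% of all genes. None of the 40 was called lower, beside 7.96% of all genes. With a 1.5-fold threshold 10 genes were called higher (25%, beside 17.9% of all genes) and 4 lower (10%, beside 11.2% of all genes). The share of the 40 genes called higher at 2-fold was thus close to the share of all genes. The ratio of *Nop56*, the largest of the 5, changed sign when a tag outside the reference was added, as described below. Where the replicates are assumed to vary with a BCV of 0.2 (edgeR's exact test), *Nop56* was the only one of the 40 genes still called.

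The median log2 ratio of the 37 genes was 0.39, beside 0.17 for the 11377 genes with tags in both libraries. Their quartiles were −0.12 and 0.63, and those of all genes −0.44 and 0.78. Scaling with TMM factors moved the median of all genes to −0.01 and that of the 37 genes to 0.21. It also turned the balance of calls among all genes from 59.8% higher to 46.8% higher. The tags of the 40 genes summed to 6261 TPM in GC-1spg against 5722 TPM in GC-2spd (ts). A single gene, *Npm1*, held 48.5% of these tags in GC-1spg against 28.6% in GC-2spd (ts). Without it the sum was 3225 TPM in GC-1spg against 4085 TPM in GC-2spd (ts), which is the other direction.

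**Figure D1:**
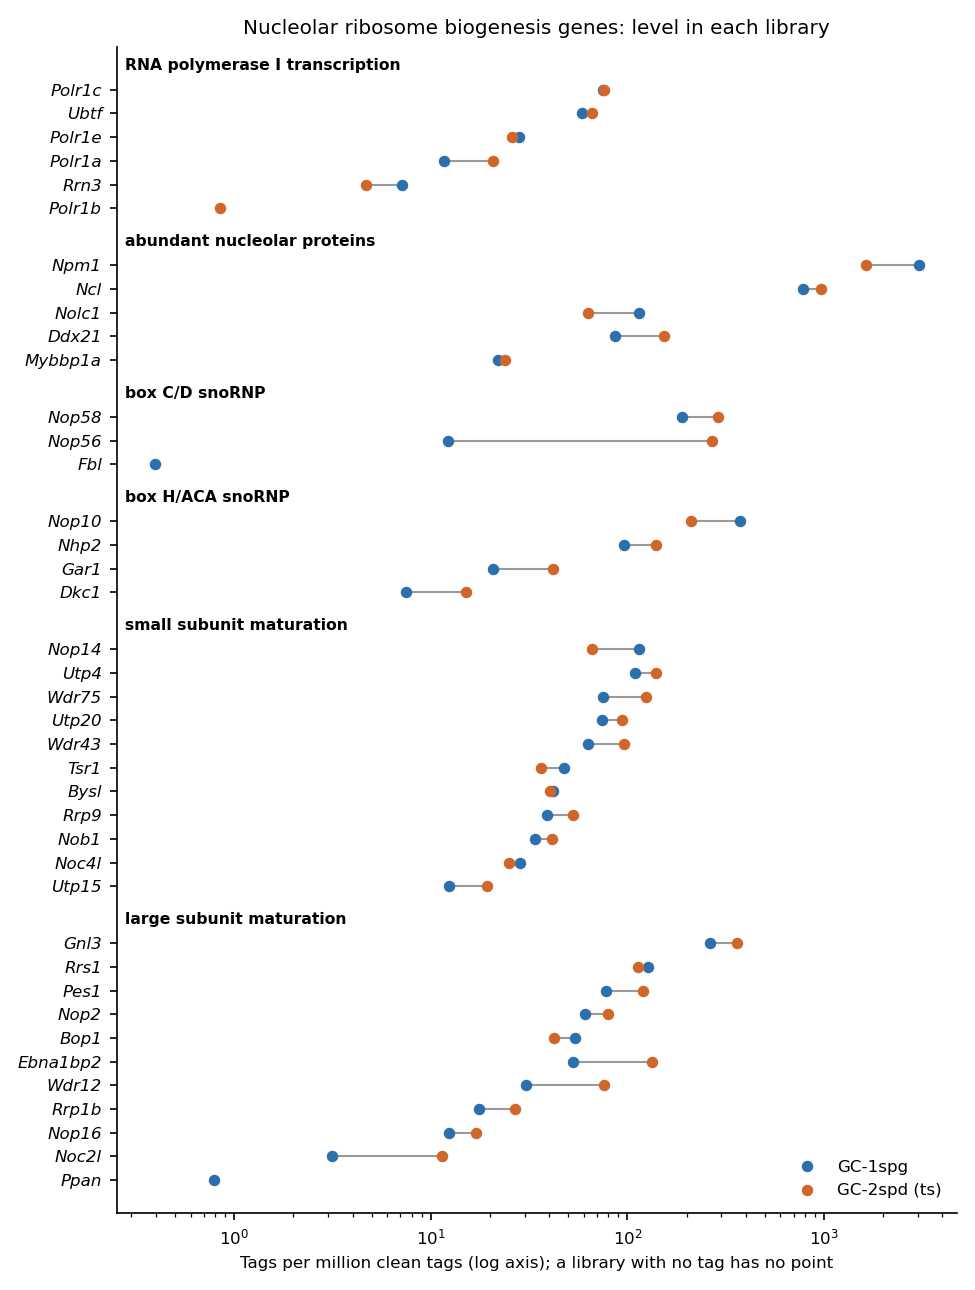
Level of each of the 40 genes in the GC-1spg library (blue) and the GC-2spd (ts) library (orange), in TPM on a log axis, grouped by role; each point is 1 library and a grey line joins the 2 points of a gene. *Npm1* and *Ncl* stand highest in both libraries, *Nop56* has the longest line, and *Polr1b*, *Fbl* and *Ppan* have a point in 1 library only.

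The tags on which these values rest are shown for the 5 called genes and for the most abundant gene of each role, together with their places in GRCm38, since each gene is counted through a few 21-base tags and mostly through 1. Capitals mark the CATG of the NlaIII site.
Polr1c (chr17:46244340-46244360, minus strand, coding sequence of exon 8 of 9): CATGagaaactcaagaaggct
Npm1 (chr11:33152522-33152542, minus strand, 3′ UTR in exon 11 of 11): CATGtgaaataaactcagtat
Nop58 (chr1:59711356-59711376, plus strand, 3′ UTR in exon 15 of 15): CATGcttacgattcagttggg
Nop56 (chr2:130279271-130279291, plus strand, 3′ UTR in exon 12 of 12): CATGaatgataaaaccccaat
Nop10 (chr2:112262633-112262653, plus strand, 3′ UTR in exon 2 of 2): CATGccaggttattaaagata
Gar1 (chr3:129828918-129828938, minus strand, coding sequence of exon 4 of 7): CATGaaggcatcttcctttaa
Utp4 (chr8:106923061-106923081, plus strand, 3′ UTR in exon 17 of 17): CATGataataaaacaaagtta
Gnl3 (chr14:31012453-31012473, minus strand, 3′ UTR in exon 15 of 15): CATGttataaattcaaaataa
Wdr12 (chr1:60078158-60078178, minus strand, end of the coding sequence and start of the UTR in exon 13 of 13): CATGtgggggcttgaaaatga
Ebna1bp2 (chr4:118623655-118623675, plus strand, coding sequence of exon 6 of 9): CATGatgaatgccatcaagaa
Noc2l (chr4:156241381-156241401, plus strand, coding sequence of exon 9 of 18): CATGcaacggacactgactga
For 37 of the 40 genes a tag with at least 10 copies over both libraries was counted. Each tag was placed on the longest protein-coding transcript that holds it. The most abundant of these tags lay at the CATG nearest the 3′ end of that transcript in 19 genes and further upstream in 18. Such an upstream tag can be the last CATG of another annotated transcript. For *Ncl*, tags at the last CATG of any transcript held 6543 of the 8552 copies. The most abundant tag lay in a 3′ UTR in 24 genes and in coding sequence in 12.

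None of the 6 genes of RNA polymerase I and its factors was called, beside 11.8% of all genes called higher and 7.96% lower. The intervals of 4 of the 5 with tags in both libraries held 0. *Polr1c*, a subunit that RNA polymerases I and III share, had 382 tags in GC-1spg against 361 in GC-2spd (ts), and its log2 ratio was 0.02 (−0.19 to 0.23). *Ubtf*, which bends the ribosomal DNA and recruits the polymerase, had 299 and 311 tags and a ratio of 0.16 (−0.08 to 0.39). *Polr1e*, a subunit found in RNA polymerase I only, had 142 and 122 tags and a ratio of −0.12 (−0.48 to 0.24). These 3 genes lay close to 0, and the signs for *Polr1c* and *Ubtf* turned negative under TMM scaling. *Polr1a*, the largest subunit, had 59 tags in GC-1spg against 98 in GC-2spd (ts), and with a log2 ratio of 0.83 (0.35 to 1.33) its interval was the only one of the group to lie above 0, though it did not pass the FDR. *Rrn3*, the factor that brings the polymerase to the promoter, had 36 and 22 tags and a ratio of −0.61 (−1.44 to 0.20). It was thus the least abundant of the 5 genes with tags in both libraries. *Polr1b*, the second largest subunit, was left with 0 tags in GC-1spg against 4 in GC-2spd (ts), because its tag near the 3′ end, with 48 and 39 copies, is also a tag of *Plekha5* and was not counted.

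The 5 abundant nucleolar proteins held the 2 most abundant of all 40 genes and moved in different directions. There was no call at 2-fold among them, beside 11.8% of all genes called higher and 7.96% lower. *Npm1*, nucleophosmin, a chaperone of ribosomal proteins and histones, had 15400 tags (3036 TPM) in GC-1spg against 7737 tags (1637 TPM) in GC-2spd (ts). Its log2 ratio was −0.89 (−0.93 to −0.85), past 1.5-fold but not at 2-fold. All 12 *Npm1* tags with at least 10 copies in total and present in both libraries lay on the GC-1spg side. Several of these 12 differ from the main tag by 1 substitution and lie at its site, so they are not separate positions. The main tag shown above had 13904 copies in GC-1spg against 6862 in GC-2spd (ts). A second tag, at the end of the shorter transcript Npm1-204, had 1155 and 708 copies. Both tags thus had fewer copies in GC-2spd (ts), and *Npm1* was called lower under TMM scaling, where its ratio was −1.07. *Ncl*, nucleolin, which binds the precursor RNA, had 3981 tags in GC-1spg against 4571 in GC-2spd (ts), a ratio of 0.30 (0.24 to 0.36). The *Ncl* total depends on tags that pseudogenes share: where these were left out, 813 tags were left in GC-1spg against 874 in GC-2spd (ts). *Ddx21*, an RNA helicase of the nucleolus, had 439 and 725 tags and a ratio of 0.83 (0.65 to 1.0). All 6 of its tags lay on the GC-2spd (ts) side, and it was called at 1.5-fold. *Mybbp1a*, which binds the factor Myb and restrains ribosomal RNA synthesis, had 111 and 113 tags, a ratio of 0.13 (−0.26 to 0.52) that turned to −0.05 under TMM scaling.

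*Nolc1*, also known as Nopp140, a chaperone of snoRNPs, had 581 tags in GC-1spg against 297 in GC-2spd (ts), a ratio of −0.87 (−1.07 to −0.66). Its tags did not go together. A tag in the 3′ UTR that follows the reference sequence over its whole length, here the read-through tag, had 409 copies in GC-1spg against 138 in GC-2spd (ts), while the tag at the CATG nearest the transcript's end had 101 and 98 copies and a tag in the coding sequence had 56 and 39. Both libraries also held, outside the reference, a far more abundant tag that starts at the same CATG as the read-through tag and runs into a stretch of A, with 1390 copies in GC-1spg against 1207 in GC-2spd (ts). Both are shown with the CATG in capitals.
Nolc1, read through (chr19:46084450-46084470, plus strand, 3′ UTR in exon 13 of 13): CATGtcatacagatttttgtt
Nolc1, into poly(A), same CATG: CATGtcatacagaaaaaaaaa
With the poly(A) tag added the ratio of *Nolc1* was −0.29 (−0.39 to −0.19), still below 0 but smaller than 1.5-fold. Without that tag *Nolc1* was called lower under TMM scaling, with −1.05.

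**Figure D2:**
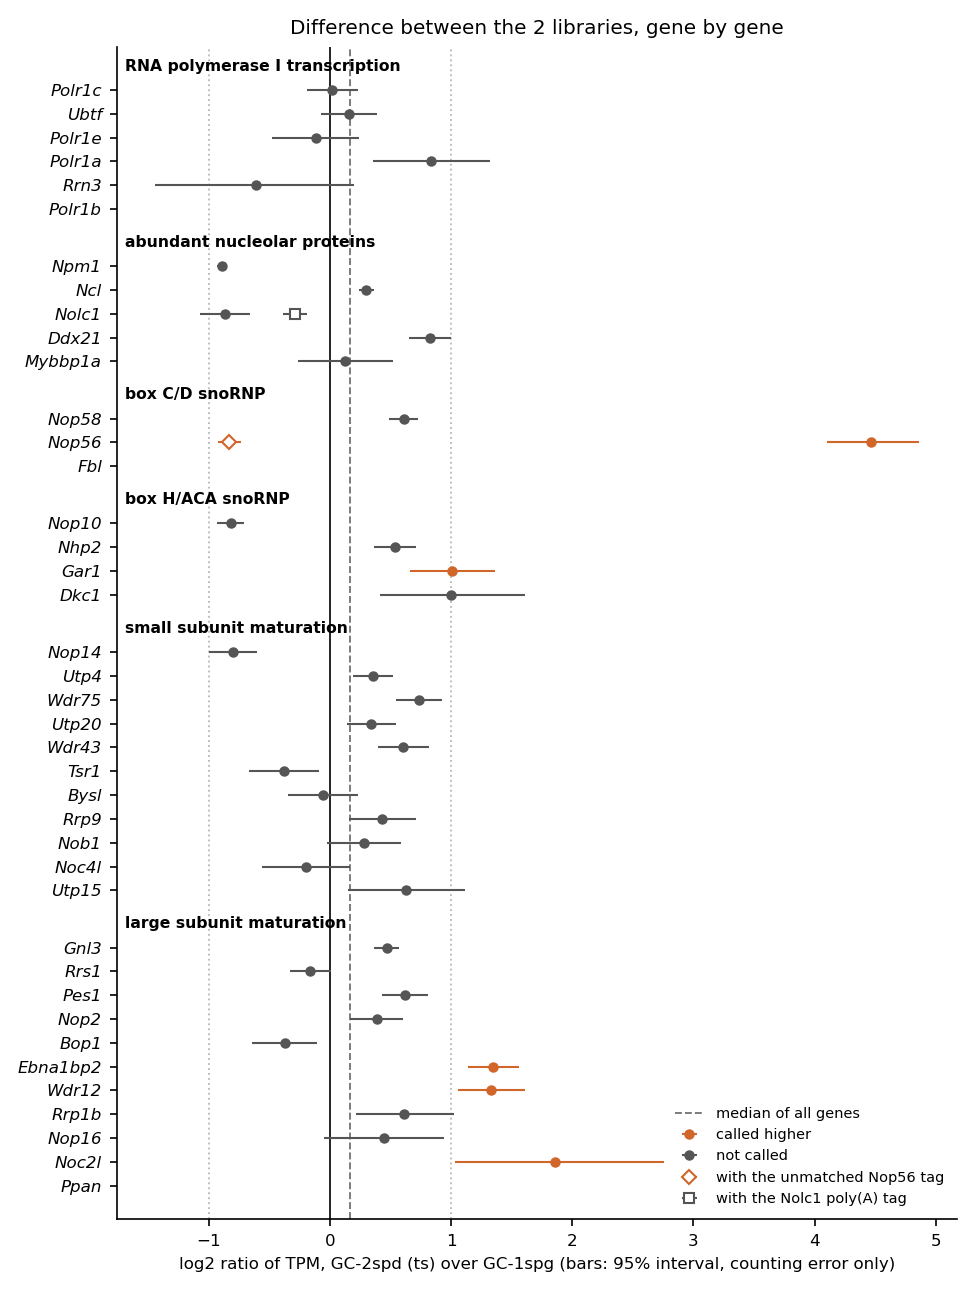
Log2 ratio of GC-2spd (ts) over GC-1spg (x axis) for the 37 genes with tags in both libraries, by role, with exact 95% intervals that cover counting error only; dotted lines mark 2-fold, the dashed line the median of all genes (0.17), and orange the 5 called genes. The open diamond gives *Nop56* with the tag outside the reference (−0.83 in place of 4.47) and the open square *Nolc1* with its poly(A) tag (−0.29 in place of −0.87).

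Of the 3 core proteins of box C/D snoRNPs, *Nop58* and *Nop56* are scaffold proteins and *Fbl*, fibrillarin, is the methyltransferase. *Nop58* had 957 tags in GC-1spg against 1360 in GC-2spd (ts), a ratio of 0.61 (0.49 to 0.73), called at 1.5-fold. *Nop56* had 62 tags (12.2 TPM) in GC-1spg against 1279 tags (271 TPM) in GC-2spd (ts), a 22.1-fold difference with a log2 ratio of 4.47 (4.10 to 4.86). It was the largest ratio of the 37 genes with tags in both libraries. *Fbl* was left with 2 tags in GC-1spg against 0 in GC-2spd (ts), because its main tag also matches the antisense strand of *Tulp4*. With sense matches preferred over antisense ones, *Fbl* had 405 and 207 tags and a ratio of −0.87.

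The *Nop56* difference came from 1 tag, the one shown above that lies 43 bases from the end of the transcript Nop56-202. It had 0 copies in GC-1spg against 1213 in GC-2spd (ts). The GC-1spg library held instead, with 2374 copies against 0 in GC-2spd (ts), a tag that matched no reference tag. This tag equals the *Nop56* 3′ UTR 4 bases further downstream except for the substitution A1C, where positions are counted from 1 at the 5′ end of the tag, the reference base stands first and the base of the tag last. Capitals mark the substituted base, which makes a CATG that the reference lacks.
Nop56, reference (chr2:130279275-130279295, plus strand): aatgataaaaccccaataaaa
Nop56, tag of GC-1spg: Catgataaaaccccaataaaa
The other 3 counted *Nop56* tags with at least 10 copies were present in both libraries at low copy number. The tag in exon 10 had 30 copies in GC-1spg against 40 in GC-2spd (ts), the tag at the end of the transcript Nop56-209 had 6 in each, and the tag furthest upstream had 5 and 7. Together these 3 tags had 41 copies in GC-1spg against 53 in GC-2spd (ts), a ratio of 0.47 with an interval (−0.14 to 1.10) that held 0. Counted tags with fewer copies added 21 in GC-1spg against 13 in GC-2spd (ts). A sense tag shared with *Gm24451*, with 0 and 11 copies, was not counted. With the unmatched tag added, *Nop56* had 2436 tags in GC-1spg against 1279 in GC-2spd (ts), and its ratio was −0.83 (−0.93 to −0.73), the opposite direction and below 2-fold. Antisense tags of *Nop56*, which were not counted, had 270 copies in GC-1spg against 118 in GC-2spd (ts). Whether the substitution is a difference between the genomes of the lines was not tested.

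**Figure D3:**
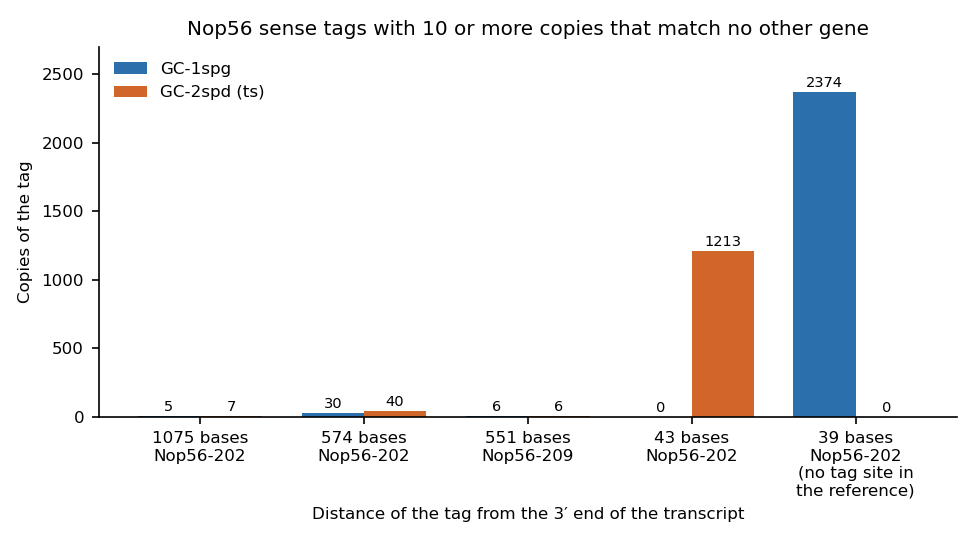
Copies (y axis) of the 5 sense tags of *Nop56* with at least 10 copies that match no other gene, ordered by distance from the 3′ end of the transcript (x axis), in GC-1spg (blue) and GC-2spd (ts) (orange). The 3 upstream tags have 5 to 40 copies in each library, the reference tag at 43 bases has 0 and 1213, and the tag at 39 bases, which is at no CATG of the reference, has 2374 and 0.

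The 4 proteins of box H/ACA snoRNPs, which guide pseudouridylation and also hold telomerase RNA, did not all lie on the same side. *Dkc1*, dyskerin, the pseudouridine synthase, had 38 tags in GC-1spg against 71 in GC-2spd (ts). Its ratio of 1.004 (0.42 to 1.61) did not pass the FDR. *Gar1* had 105 and 197 tags and a ratio of 1.01 (0.66 to 1.37). It was called, just past 2-fold, and fell short of it under TMM scaling with 0.83. All 3 of its tags lay on the GC-2spd (ts) side, with 84 and 164 copies for the tag shown above. *Nhp2* had 489 tags in GC-1spg against 661 in GC-2spd (ts), a ratio of 0.54 (0.37 to 0.71). *Nop10*, the smallest of the 4 proteins, had 1890 and 999 tags and a ratio of −0.82 (−0.93 to −0.71), called lower at 1.5-fold. Of its tags the main one, with 1858 copies in GC-1spg against 991 in GC-2spd (ts), held 98.6%. *Nop10* thus stood alone in the group on the GC-1spg side, at 373 and 211 TPM, and the interval of each of the 4 genes lay clear of 0.

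None of the 11 factors of small subunit maturation was called at 2-fold, beside 11.8% of all genes called higher and 7.96% lower. Of their 11 ratios 7 were above 0, beside 58.7% of all genes, with a median of 0.34. The members of the early particle, the UTP-A group, were all on the GC-2spd (ts) side. *Wdr75* had 379 tags in GC-1spg against 587 in GC-2spd (ts), a ratio of 0.73 (0.54 to 0.92). *Wdr43* had 320 and 454 tags, a ratio of 0.61 (0.40 to 0.82). Both were called at 1.5-fold. *Utp4*, the most abundant of the 11 in GC-2spd (ts), had 552 tags in GC-1spg against 659 in GC-2spd (ts), a ratio of 0.36 (0.19 to 0.52). *Utp15* had 63 and 91 tags, a ratio of 0.63 (0.15 to 1.12). The intervals of these 4 genes overlapped, except those of *Wdr75* and *Utp4*.

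Of the other small subunit factors, *Nop14*, which works in the nucleolar particle with Noc4l, went the other way with 584 tags in GC-1spg against 313 in GC-2spd (ts), a ratio of −0.80 (−1.0 to −0.60) that was called at 1.5-fold. Its partner *Noc4l* had 145 and 118 tags, a ratio of −0.20 (−0.56 to 0.17). *Tsr1*, a GTPase-like late factor, had 240 and 172 tags, a ratio of −0.38 (−0.67 to −0.09). The interval of *Noc4l* held 0 and those of *Nop14* and *Tsr1* lay below it. *Utp20* had 377 tags in GC-1spg against 445 in GC-2spd (ts), a ratio of 0.34 (0.14 to 0.54). *Rrp9*, a protein of the U3 snoRNP, had 198 and 249 tags, a ratio of 0.43 (0.16 to 0.71). Both were higher than 0 by their intervals and below 1.5-fold. *Nob1*, the endonuclease that makes the final cut of 18S RNA, had 172 and 195 tags, a ratio of 0.28 (−0.02 to 0.59). *Bysl*, bystin, had 212 and 190 tags, a ratio of −0.06 (−0.35 to 0.23). The intervals of these 2 genes held 0.

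The 11 factors of large subunit maturation held 3 of the 5 calls, which is 27.3% of the 11 beside 11.8% of all genes. The calls of *Wdr12* and *Noc2l* did not hold under every matching rule, as given below. *Ebna1bp2*, which acts in early steps on the large subunit precursor, had 267 tags (52.6 TPM) in GC-1spg against 633 tags (134 TPM) in GC-2spd (ts), a 2.54-fold difference with a log2 ratio of 1.35 (1.14 to 1.56). *Wdr12*, a protein of the PeBoW complex, had 154 tags (30.4 TPM) and 361 tags (76.4 TPM), a 2.52-fold difference with a log2 ratio of 1.33 (1.05 to 1.61). For both genes the lower end of the interval lay above 2-fold. Each rested mostly on the tag shown above, that of *Ebna1bp2* with 249 copies in GC-1spg against 614 in GC-2spd (ts), that of *Wdr12* with 104 and 303. The smaller tags of *Wdr12* were closer to level, with 22 and 26 copies and with 22 and 21 copies. Counted only at the last CATG of any annotated transcript, its ratio was 0.34 and it was not called. That value is the tag with 22 and 26 copies alone, which lies 7450 bases from the end of Wdr12-201. The tag nearest the end of Wdr12-201, shared with *Pms1* and with 2 and 9 copies, was not counted. A further tag of *Ebna1bp2*, at the CATG nearest its 3′ end, was not counted because it also matches the antisense strand of *Atp23*, and had 56 and 51 copies. With sense matches preferred the ratio of *Ebna1bp2* was 1.18.

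The other 2 proteins of the PeBoW complex, which is needed for the processing of the RNAs of the large subunit, were *Pes1* and *Bop1*. *Pes1* had 395 tags in GC-1spg against 565 in GC-2spd (ts), a ratio of 0.62 (0.43 to 0.81), called at 1.5-fold. *Bop1* had 276 and 199 tags, a ratio of −0.37 (−0.64 to −0.10). The *Bop1* ratio rested on its main tag, with 227 copies in GC-1spg against 133 in GC-2spd (ts). Of the 7 *Bop1* tags with at least 10 copies, 5 lay above 0 and 2 below, and only the interval of the main tag lay clear of 0. The intervals of the 3 PeBoW genes did not overlap. Within *Pes1* the 2 main tags went apart: the tag at the CATG nearest the 3′ end had 73 copies in GC-1spg against 35 in GC-2spd (ts), and the next one upstream, also in the 3′ UTR, had 294 and 502. Counted at the site nearest the 3′ end only, its ratio was −0.83.

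*Noc2l*, a factor of early large subunit particles and an inhibitor of histone acetyltransferases, had only 16 tags in GC-1spg against 54 in GC-2spd (ts), a 3.62-fold difference with a log2 ratio of 1.86 (1.03 to 2.76). Its tag nearest the 3′ end, with 107 and 67 copies, also matches the antisense strand of *Samd11* and was not counted. With sense matches preferred *Noc2l* had 125 tags in GC-1spg against 124 in GC-2spd (ts), a ratio of 0.09, and was not called. *Gnl3*, nucleostemin, a GTPase abundant in stem cells and in dividing cells, had 1327 tags in GC-1spg against 1712 in GC-2spd (ts), a ratio of 0.47 (0.36 to 0.57). A smaller *Gnl3* tag, from a transcript with a retained intron, had 34 copies in GC-1spg against 0 in GC-2spd (ts). *Gnl3* was the most abundant of the 11 factors in both libraries, at 262 and 362 TPM.

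Of the other large subunit factors, *Nop2*, a methyltransferase of 28S RNA, had 308 tags in GC-1spg against 375 in GC-2spd (ts), a ratio of 0.39 (0.16 to 0.61). *Rrp1b* had 89 and 127 tags, a ratio of 0.61 (0.21 to 1.02). *Nop16* had 63 and 80 tags, a ratio of 0.45 (−0.05 to 0.95). All 3 ratios were above the median of all genes, and the interval of *Nop16* held 0. *Ppan* was left with 4 tags in GC-1spg against 0 in GC-2spd (ts), too few for a ratio. *Rrs1*, which brings the 5S particle into the large subunit, had 645 and 538 tags, a ratio of −0.16 (−0.33 to 0.01).

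*Rrs1* showed a second pair of tags that split by library. Its tag nearest the 3′ end had 605 copies in GC-1spg against 129 in GC-2spd (ts). The same tag with the substitution A19G had 0 copies in GC-1spg against 384 in GC-2spd (ts), so that the GC-2spd (ts) library held both forms. Capitals mark the substituted base.
Rrs1, reference (chr1:9547376-9547396, plus strand, 3′ UTR in exon 1 of 1): catgtttatttctgtcctaga
Rrs1, tag of GC-2spd (ts) only: catgtttatttctgtcctGga
Another such pair was found in *Noc2l*, where the reference tag had 0 copies in GC-1spg against 19 in GC-2spd (ts) and the tag with T7C had 11 and 0.
Noc2l, reference (chr4:156243548-156243568, plus strand, coding sequence of exon 12 of 18): catgagttccaagcccatcaa
Noc2l, tag of GC-1spg only: catgagCtccaagcccatcaa
Tags with 1 substitution were counted, and the interval of *Rrs1* held 0. With exact matches only, its ratio was −1.96 and it was called lower. Tags with 1 substitution made up 0.390% of the counted copies of the 40 genes in GC-1spg against 1.59% in GC-2spd (ts), over tags with at least 10 copies. The *Rrs1* tag with A19G alone gave 384 of the substituted copies in GC-2spd (ts). The *Nop56* tag with A1C, with 2374 copies in GC-1spg, is not part of these shares because it was not counted.

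Of the 32 genes with 2 or more tags of at least 10 copies and present in both libraries, all tags lay on 1 side in 19 and on both sides in 13. Tags that differ by 1 substitution at the same site count as separate tags here. A tag with equal copies in the 2 libraries falls above 0 through the scaling alone. In 3 genes, *Ubtf*, *Ncl* and *Pes1*, some intervals lay above 0 and others below. In *Ubtf* the main tag had 242 copies in GC-1spg against 280 in GC-2spd (ts), and the tag nearest the 3′ end had 23 and 9. In *Ncl*, which has long 3′ UTR transcripts in the annotation, a tag 588 bases from the end of Ncl-201 had 35 and 2 copies, against 2944 and 3552 for the main tag. The main tag held more than 80% of the copies in 23 of the 40 genes. These include *Fbl* and *Ppan*, each left with 1 tag sequence, of 2 and 4 copies over both libraries. Antisense tags of the 40 genes, which were not counted, had 4484 copies in GC-1spg against 2660 in GC-2spd (ts). *Npm1* alone held 2452 and 1016 of these copies. Some genes went the other way, such as *Ddx21* with 146 and 212 antisense copies.

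**Figure D4:**
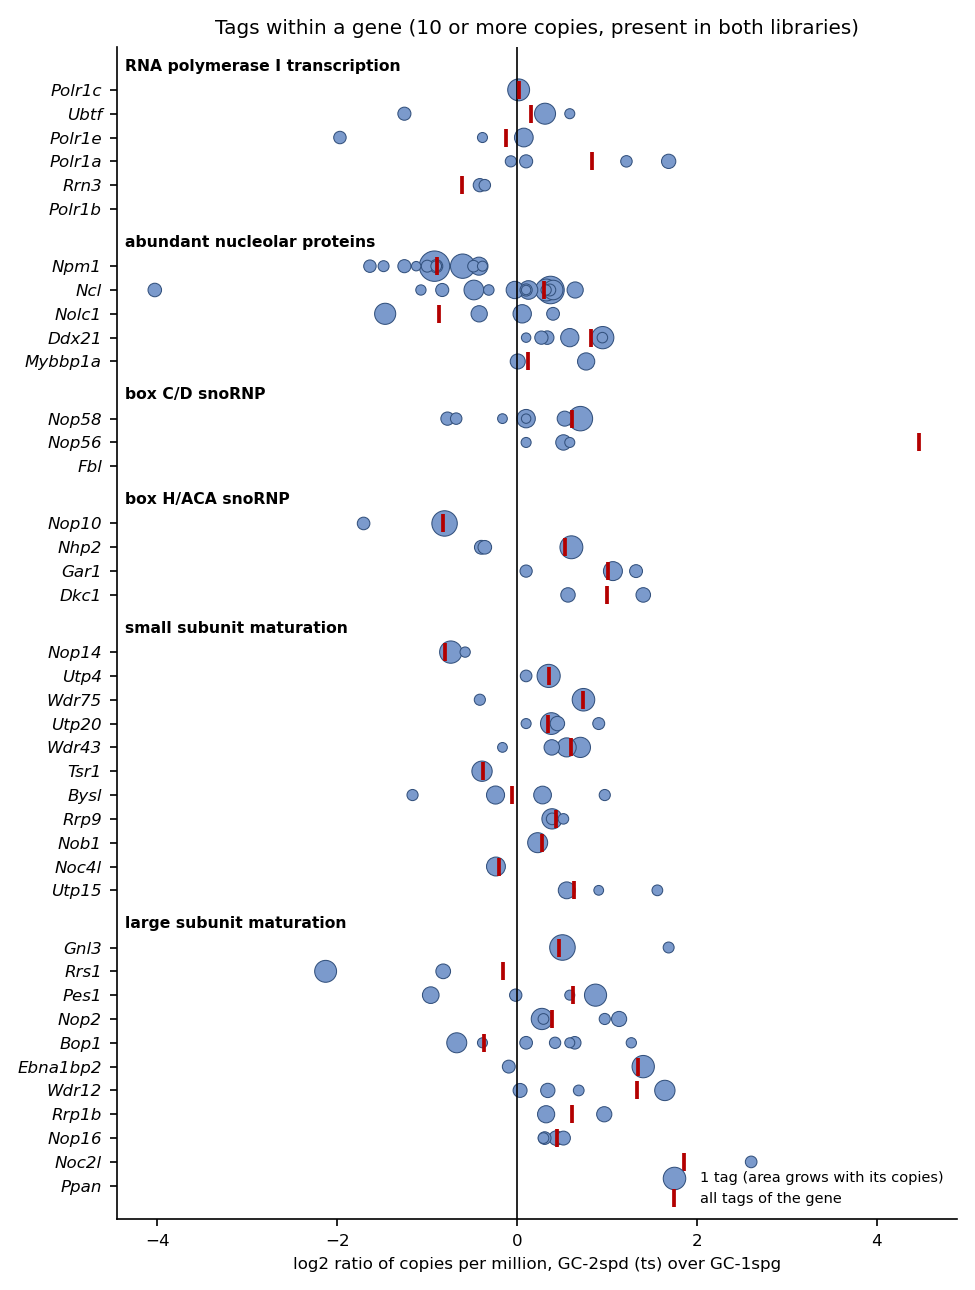
Log2 ratio of GC-2spd (ts) over GC-1spg (x axis) of each counted tag with at least 10 copies that is present in both libraries (circles, larger with more copies), beside the ratio of all counted tags of the gene (red bars), by role. The tags of *Npm1* and *Ddx21* each lie on 1 side of 0, those of *Pes1* and *Ncl* on both, and the red bar of *Nop56* (4.47) stands apart from its 3 circles (0.10 to 0.59).

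Among 120 other genes of ribosome biogenesis, 118 had a tag, 15 were called higher (12.5%, beside 11.8% of all genes) and 3 lower (2.5%, beside 7.96%). The number higher was 23 with exact matches only, 9 with TMM scaling and 1 with edgeR's exact test at a BCV of 0.2. Their median log2 ratio was 0.16 over the 117 genes with tags in both libraries, beside 0.39 for the 37 genes described above and 0.17 for all genes. The 10 largest ratios among those called higher were *Nol10* with 15 tags in GC-1spg against 83 in GC-2spd (ts), *Noc3l* with 8 and 44, *Naf1* with 236 and 697, *Exosc9* with 18 and 53, *Znhit6* with 77 and 207, *Utp14a* with 81 and 215, *Nmd3* with 81 and 198, *Mrto4* with 185 and 442, *Polr1d* with 556 and 1327, and *Gtpbp4* with 104 and 216. They belong to all stages: *Polr1d* is a subunit of RNA polymerases I and III, *Naf1* and *Znhit6* assemble snoRNPs, *Nol10* and *Utp14a* act on the small subunit, *Noc3l*, *Gtpbp4* and *Mrto4* on the large one, *Nmd3* exports it, and *Exosc9* is an exosome subunit. The 3 called lower were *Nifk*, which binds the proliferation marker Ki-67, with 714 and 290 tags, *Lyar*, a nucleolar zinc finger protein, with 2140 and 878, and *Zfp622*, a late large subunit factor, with 42 and 12. *Zfp622* had in addition a tag running into poly(A) with 536 and 522 copies that was not counted, and *Noc3l* a tag outside the reference with 76 and 0 copies (G2A). As in *Noc2l*, the reference tag and a tag with 1 substitution split by library in *Mrto4*. There the reference tag had 0 and 432 copies and the G19A tag 180 and 0.

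**Figure D5:**
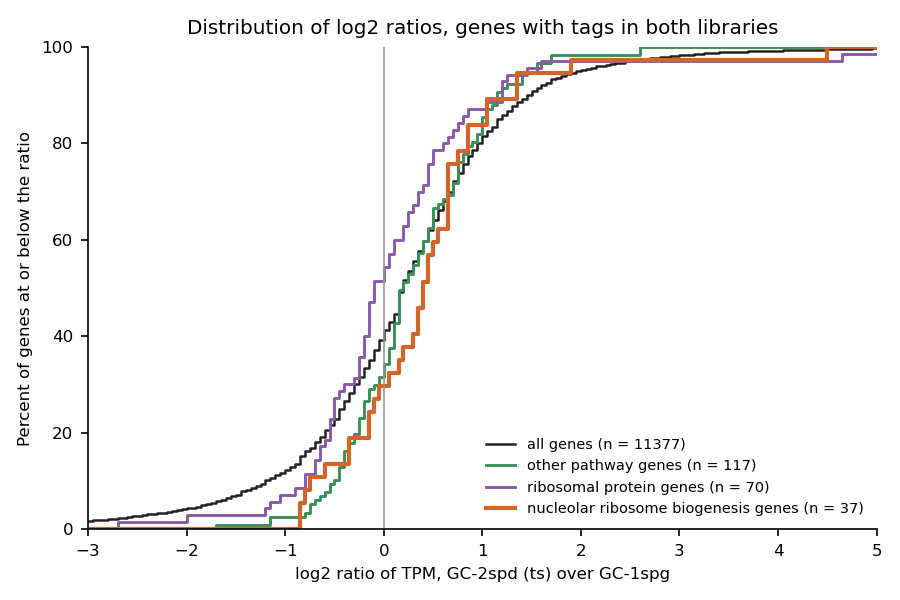
Share of genes (y axis, percent) with a log2 ratio of GC-2spd (ts) over GC-1spg at or below the value on the x axis, for the 37 nucleolar ribosome biogenesis genes, 117 other ribosome biogenesis genes, 70 ribosomal protein genes and all 11377 genes with tags in both libraries. The curve of the 37 genes has its median at 0.39, to the right of all genes (0.17) and of the ribosomal protein genes (−0.13).

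The ribosomal protein genes, whose products are assembled by these factors, had a median on the other side of 0. Of 80, 75 had a tag, 7 were called higher (8.75%, beside 11.8% of all genes) and 5 lower (6.25%, beside 7.96%). Their median log2 ratio was −0.13 over the 70 with tags in both libraries. The 2 with the most tags were *Rpl19*, with 4696 TPM in GC-1spg against 3816 in GC-2spd (ts), and *Rpl37*, with 3844 and 2435 TPM. Of 12 proliferation markers 1 was called, *Mki67*, with 295 tags in GC-1spg against 939 in GC-2spd (ts), and their median was 0.19. The 2 with the most tags, *Cdk1* at 581 and 742 TPM and *Pcna* at 510 and 494 TPM, were not called.

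The Myc family is known to drive transcription of ribosome biogenesis genes from E-boxes, and none of its 3 genes was called higher in GC-2spd (ts). *Myc* had 898 tags in GC-1spg against 678 in GC-2spd (ts), a ratio of −0.30 (−0.45 to −0.16), not called. *Mycn* had 36 and 0 tags and was called lower, at least 11.2-fold when the empty library is set to 3 tags. *Mycl* had 10 and 8. The partner *Max* was level, with 207 tags in GC-1spg against 208 in GC-2spd (ts). Of the genes for the antagonists, *Mxi1* was called lower with 175 and 75 tags and *Mxd3* higher with 5 and 26, while *Mxd1* with 23 and 15, *Mxd4* with 261 and 161 and *Mnt* with 160 and 175 were not called. *Mlx* had 54 and 45 tags and *Mga* 377 and 291, and neither was called. With tags outside the reference added and sense matches preferred, the ratio of *Mxd3* was 0.49 in place of 2.48.

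The E-box CACGTG, which reads the same on both strands, was searched by letters in the RefSeq promoters of GRCm38.p6, from 250 bases before to 50 bases after each start. Of the 40 genes 36 had a promoter in the table, and 8 of these held the motif (22.2%), beside 18 of 100 other ribosome biogenesis genes (18%), 6 of 59 ribosomal protein genes (10.2%) and 2187 of 27025 genes in all (8.09%). The 8 genes were *Nop2*, *Utp4*, *Utp20*, *Pes1*, *Mybbp1a*, *Tsr1*, *Rrn3* and *Wdr43*. Their log2 ratios ran from −0.61 in *Rrn3* to 0.62 in *Pes1*. None of these 8 was called at 2-fold, beside 11.8% of all genes called higher and 7.96% lower. The windows are shown for *Pes1* and *Wdr43*, called at 1.5-fold, and for *Rrn3*, which held the motif at 2 places. Capitals mark the motif.
Pes1 (chr11:3963965-3963994, plus strand, 2 bases after the start): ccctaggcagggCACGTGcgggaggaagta
Wdr43 (chr17:71616220-71616249, plus strand, 17 bases after the start): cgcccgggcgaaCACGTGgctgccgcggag
Rrn3, upstream (chr16:13780472-13780501, plus strand, 215 bases before the start): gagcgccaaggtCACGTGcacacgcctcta
Rrn3, near (chr16:13780639-13780668, plus strand, 48 bases before the start): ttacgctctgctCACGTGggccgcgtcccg
A match of these letters is a description of the sequence and not a measured site of binding.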

How the data were processed

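Per the labels and the methods of the study, mRNA was cut with NlaIII and tags were sequenced on 1 library per line. The authors removed adaptor, low quality and single copy tags, mapped tags to UniGene (not used here), and deposited for each tag its raw count and its TPM. Their mapping program is not given in the sources. Both deposited columns cover all clean tags of a library.

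Counts were matched here to GENCODE M21 transcripts (GRCm38) with at most 1 mismatch, exact matches first. Sense tags whose best non-pseudogene match was 1 gene were summed. The two-sided Audic-Claverie test with Benjamini-Hochberg adjustment was run over all genes, with unlisted genes set to 0.01 TPM. Without replicates, edgeR's quasi-likelihood test could not be fitted. Tests were tested on simulated data. The rule for named genes took all members, called genes of the pathway lists (the 10 largest where more were called), all Myc network genes and the 2 most abundant genes of other lists. The other ribosomal protein genes named in the closing section were chosen after their values were seen. Members and lists were chosen with earlier results of these data known. Alternatives covered matching, scaling, test, pseudocount and thresholds. In the alternative with the site nearest the 3′ end, a tag was kept if it lay at the last CATG of any annotated transcript of its gene. Python 3.11.15, scipy 1.17.1, R 4.3.3 and edgeR 4.0.16 were used.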

Additional observations from a re-analysis of the deposited data

Results flagged for a closer look

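Some tags that no comparison of the report counts belong to the 40 genes by their sequence and were abundant. The *Nop56* tag made by the substitution A1C had 2374 copies in GC-1spg against 0 in GC-2spd (ts). A count of 0 allows up to 3, before the removal of tags with a single copy is considered. The *Nolc1* tag that runs into poly(A) had 1390 copies in GC-1spg against 1207 in GC-2spd (ts), more than all counted tags of *Nolc1* together in either library. These values are given without an explanation, and no control sample was measured beside them.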

How the results depend on the processing

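No paired analysis was possible because each line has 1 library, and no library could be left out. Of 19 alternatives, 3 (tags outside the reference) were added after seeing the data, and 1 setting was changed at a time, except that the last of these 3 prefers sense matches and adds both kinds of outside tags together. The number of the 40 genes called higher, 5 as reported, was 3 with the site nearest the 3′ end, 1 with edgeR's exact test at an assumed BCV of 0.2 and 0.4 (*Nop56*), 10 at 1.5-fold and 3 with sense preferred and both kinds of outside tags. The number called lower, 0 as reported, was 1 with exact matches (*Rrs1*), 2 with TMM or RLE scaling (*Npm1* and *Nolc1*) and 4 at 1.5-fold. Of the other pathway genes, 23 were called higher with exact matches, 9 with TMM scaling, 1 and 0 at a BCV of 0.2 and 0.4, and 30 at 1.5-fold, in place of 15. The number lower was 0 at both BCVs and 6 at 1.5-fold, in place of 3. Single ratios changed sign in 7 of the 40 genes. *Nop56* went to −0.83 with outside tags, alone or with sense preferred. At the site nearest the 3′ end *Nolc1* went to 0.10 and *Pes1* to −0.83. With antisense tags added *Rrn3* went to 0.014 and *Mybbp1a* to −0.32. With TMM scaling *Polr1c*, *Ubtf* and *Mybbp1a* went to −0.16, −0.022 and −0.053, with RLE scaling to −0.15, −0.0097 and −0.041, and *Polr1c* to −0.062 with scaling to unambiguous tags. The cause of these changes was not tested, apart from the tags added or left out. *Fbl*, *Polr1b* and *Ppan* kept under 10 tags; for *Fbl* and *Polr1b* the main tag was left out as ambiguous.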

Other observations

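Large ratios that moved when tags at a site made by 1 substitution were added were also found among the ribosomal protein genes, which were chosen here after their values were seen. *Rps28* had 18 tags in GC-1spg against 2621 in GC-2spd (ts), and its log2 ratio was 7.29, and −1.47 with these tags added. *Rpl26* had 137 and 3131 tags, a ratio of 4.62, and −0.84 with these tags. *Rps13*, with 2883 and 406 tags, kept its sign and went from −2.73 to −0.66.

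Besides *Mrto4*, 8 other ribosome biogenesis genes had a reference tag and a tag with 1 substitution that were each found in 1 library only. Among them were *Exosc8*, where the reference tag had 0 copies in GC-1spg against 622 in GC-2spd (ts) and the A21G tag 402 and 0, *Exosc1*, where the reference tag had 0 and 295 and the C19A tag 344 and 0, *Tbl3* with 0 and 229 against 308 and 0 (C16T), *Xrn2* with 0 and 207 against 226 and 0 (C5T), *Urb2* with 0 and 54 against 73 and 0 (G12A), and *Tcof1* with 0 and 45 against 36 and 0 (G14A). *Eif6* had 0 and 17 copies of the reference tag and 50 and 0 of the A16G tag. *Ddx55* had 0 and 17 of the reference tag and 27 and 0 of the T16A tag. In each of these genes the reference tag was absent from GC-1spg.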
